A study of Mus musculus with 24 samples.

Results

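Lin28a, Lin28b, Hmga2, Hmga1, Igf2bp1, Igf2bp2, Igf2bp3, Arid3a and Nras are 9 genes of the let-7 pathway or classic let-7 targets. They were chosen by name, and the 3′UTR intervals whose transcript accession belongs to one of them were used, in all 24 libraries. The 9 genes are part of 20867 genes in the tables, and all 9 had at least 1 read. The libraries came from preleukemic mouse cells, c-Kit-enriched from fetal liver at E14.5 and transformed by retroviral Meis1 and Hoxa9 (written Hox9/Meis1 in the labels). All cells were C57BL/6 and carried floxed Tut4 and Tut7 alleles. In the cDKO group Vav-iCre, which is active in blood cells, deletes both genes, and control cells came from littermates without the Cre. The nucleoside 4-thiouridine (4SU, 2.9 µM) was given for 12 h to label new RNA. Chase in medium free of 4SU then lasted 0, 60, 180 or 540 min, with 3 biological replicates of each of the 8 groups. 3′-end sequencing gave read counts, and the T-to-C conversions left by alkylated 4SU gave a rate per covered T position. This rate measures labelling and is not the share of molecules labelled.

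The let-7 microRNAs accumulate as cells differentiate and repress mRNAs that promote growth and the fetal state. LIN28A and LIN28B bind let-7 precursors and recruit the terminal uridylyl transferases TUT4 and TUT7, which add an oligo(U) tail that marks the precursor for decay. Without LIN28, TUT4 and TUT7 can add a single uridine that helps the maturation of some let-7 precursors. LIN28B is in turn a let-7 target, so the pathway forms a loop, and in blood Lin28b, Hmga2, Arid3a and the Igf2bp genes are linked to fetal blood formation. The series has no small RNA libraries among the samples used here, so let-7 itself was not measured.

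The seed, bases 2 to 8 of a microRNA, sets most of its target choice, and the let-7 sequences are shown to define the site looked for below. Of 11 mature let-7 family sequences in the RefSeq table (GRCm38.p6), 10 shared the seed of let-7a, and mmu-let-7j differed. Capitals mark the seed.
mmu-let-7a-5p: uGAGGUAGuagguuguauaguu
mmu-let-7g-5p: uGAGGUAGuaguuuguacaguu
mmu-let-7i-5p: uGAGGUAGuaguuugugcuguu
mmu-miR-98-5p: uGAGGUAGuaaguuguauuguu
mmu-let-7j: uGAGGUAUuaguuugugcuguuau

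The seed match CTACCTC was searched on the sense strand of the longest annotated 3′UTR of each coding gene (GENCODE vM39, GRCm39, a later build than the mm10 of the count tables). It was found in 11.5% of 21573 genes, and in 14.9% of the 11646 genes with 3′UTRs of 1000 to 5000 bases. All 9 genes held a match, which describes how they came to be known as targets and is not a result of these libraries. Lin28b, Hmga2 and Igf2bp1 held 4 matches each, Lin28a and Arid3a 2 each, and Hmga1, Igf2bp2, Igf2bp3 and Nras 1 each. One site is shown for each gene the results turn on, with the match in capitals and its place on GRCm39.
Lin28a, chr4:133732500-133732527, minus strand: ggagtgcacagcctgttgaaCTACCTCa
Lin28b, chr10:45257118-45257145, minus strand: ccttcacccgggcgggaagtCTACCTCa
Hmga2, chr10:120200129-120200156, minus strand: ggggcgccgacattcaatttCTACCTCa
Igf2bp3, chr6:49063721-49063748, minus strand: aaacgtgcatttttactcaaCTACCTCa
Arid3a, chr10:79789724-79789751, plus strand: catgcaaggcaagtttctttCTACCTCa
Nras, chr3:102971670-102971697, plus strand: ctgagacctcttcagaataaCTACCTCc
The match is followed by A, the base that strengthens such sites, in 5 of these 6 sites, Nras being the exception, and in 10 of all 20 matches of the 9 genes.

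The libraries held 4380235 to 7041311 reads in 3′UTRs. Levels are given as CPM, counts scaled to the library's total of these reads. In bulk RNA, fewer cells of a type and less RNA per cell cannot be told apart. For Tut4 and Tut7 the groups did not overlap at any time, with cDKO lower, a position that 17.8% to 18.9% of the genes tested had at each single time. At 0 min Tut4 was 76.5 ± 9.16 CPM in control and 22.2 ± 6.92 CPM in cDKO, and Tut7 was 40.0 ± 5.24 and 18.7 ± 1.81 CPM (SD, n = 3). These reads lie at the 3′ end, and whether the floxed exons reach it is not given in the sources used here, so the level is no direct check of the deletion. The cells also differed in lineage markers. At 0 min the adult globin gene Hbb-bt was 0.694 ± 0.767 CPM in control and 1642 ± 340.5 CPM in cDKO, while the granule protease gene Elane was 1487 ± 126 and 70.4 ± 85.3 CPM (SD, n = 3). The 5 erythroid markers summed to 0.752 to 2.12 CPM in control and 1302 to 1983 CPM in cDKO, with Hbb-bt the only one that passed the count filter, and Epor had no reads. The 9 myeloid progenitor markers, Elane among them, summed to 2540 to 2817 CPM in control and 495 to 921 CPM in cDKO. In the test described below, 2 of the 9 fell and 0 rose at 0 min, beside 6.64% and 6.72% of all genes tested. At 60 and 180 min 4 and 5 fell and 1 rose, beside 10.2% and 9.78% falling and 9.97% and 9.1% rising. Among 5 mast cell and basophil markers, Cpa3 went from 0 to 62.2 ± 8.57 CPM and Gata2 from 3.95 ± 2.02 to 104 ± 43.4 CPM. Mcpt8 and Ms4a2 were tested too and were called at no time. Mcpt8 was lower in cDKO throughout, with log2 changes of -0.75 to -0.22 over the 4 times (edgeR adjusted p = 0.0869 to 0.667). Those of Ms4a2 ran from -0.66 to 0.02 (edgeR adjusted p = 0.222 to 0.983), and Fcer1a had no reads. The 5 markers summed to 21.5 to 27.6 CPM in control and 148 to 246 CPM in cDKO. Among macrophage markers Adgre1 was higher and Csf1r lower in cDKO. The stromal marker Pdgfrb was 0 CPM in control and 5.49 ± 1.42 CPM in cDKO. No other of the 5 stromal markers passed the count filter at 0 min, and Col1a2, Cdh5 and Alb had no reads then. The part of these differences in the results below was not tested. The cDKO libraries of one replicate number deviated together across the times, with correlations of 0.228 to 0.685 over 9921 genes. In control they ran from -0.0175 to 0.106. Whether a number marks 1 culture followed over the chase is not given in the sources used here, and values summed over the 4 times are given per replicate number.

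**Figure D1:**
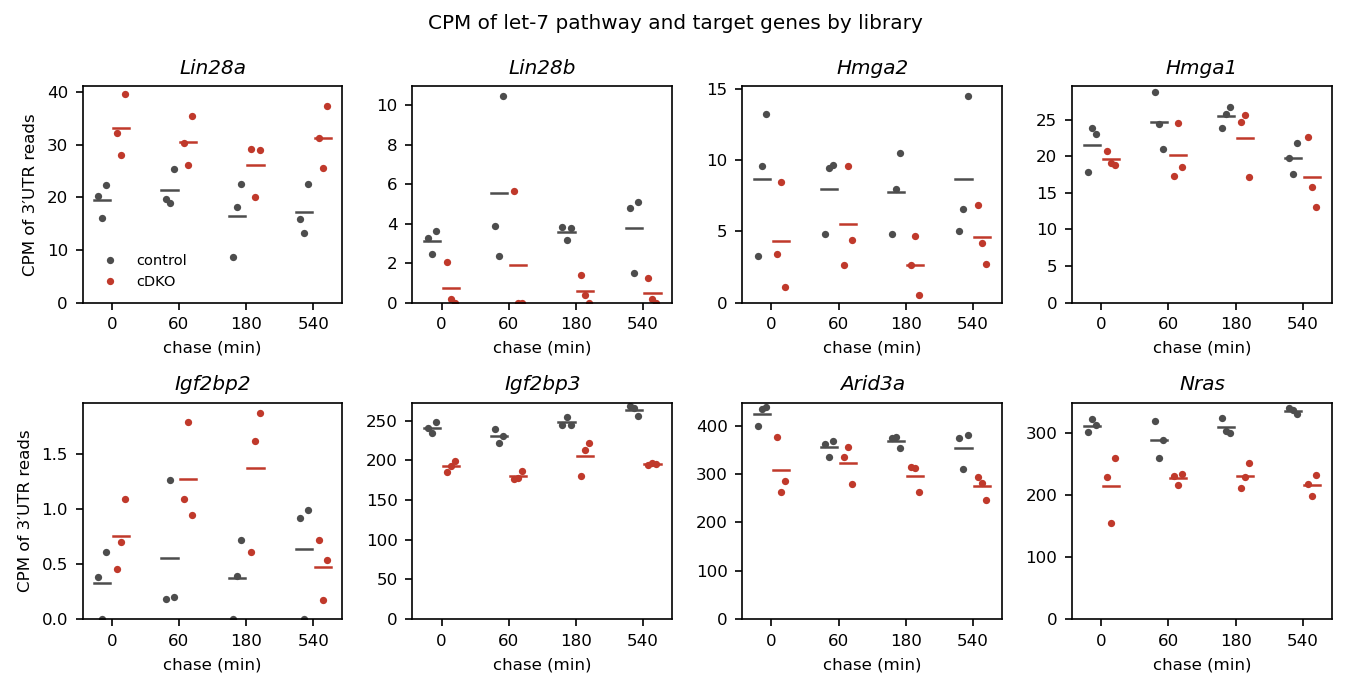
CPM of reads in 3′UTRs (vertical axis, from 0) for 8 of the genes at each chase time (horizontal axis), with 1 point per library and a bar at the mean of 3, control in grey and cDKO in red. Lin28a sits higher in cDKO, Igf2bp3 and Nras sit lower at every time, and Lin28b is near 0 in most cDKO libraries.

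Abundance was compared between cDKO and control at each time with the edgeR quasi-likelihood test over all genes that passed its count filter. Igf2bp1 and Igf2bp2 passed it at no time, and Lin28b did not pass at 540 min. At 0 min 3 of the 7 genes tested changed, beside 13.4% of all genes tested. Of these, 1 rose, as did 6.72% of all genes, and 2 fell, as did 6.64%. At 60 min 2 of 7 changed, beside 20.2% of all genes. Both fell, where 9.97% of all genes rose and 10.2% fell. At 180 min 4 of 7 changed, all lower, beside 18.9% of all genes, of which 9.1% were higher and 9.78% lower. At 540 min 4 of 6 changed, beside 19.2% of all genes, with 1 rise against a background of 8.89% and 3 falls against 10.4%. With the 4 times summed per replicate number, 4 of 8 changed, 1 up and 3 down, beside 30.6% of all genes, of which 14.9% rose and 15.7% fell. The median log2 change of the genes tested was -0.45, -0.37, -0.33 and -0.41 in the order of the times, and that of all genes lay within 0.01 of 0. The 9 genes differ in how many reads they had, so these counts describe them and are not a test of the group.

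**Figure D2:**
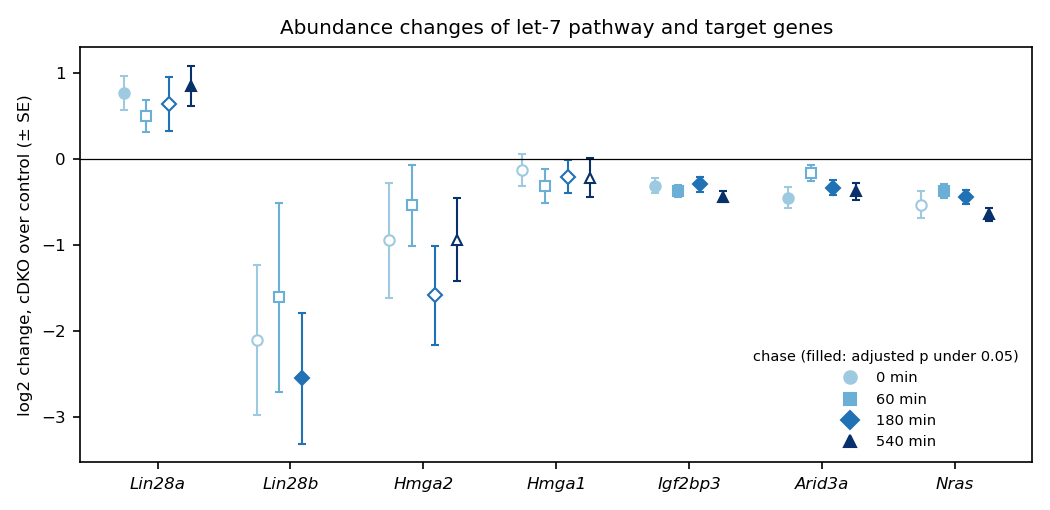
Log2 change of abundance, cDKO over control (vertical axis), with its SE, for the 7 genes tested at each chase time (marker shape). Filled markers passed an adjusted p of 0.05. Lin28a is above 0 at all 4 times, and the others are below 0.

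Lin28a, the RNA-binding protein that blocks let-7 maturation in stem cells, was the only one of the 9 that rose. Its 3′UTR interval is chr4:134003330-134006104 (mm10, minus strand). At 0 min it was 20.3, 16.2 and 22.3 CPM in the 3 control libraries and 32.2, 28.1 and 39.7 CPM in the 3 cDKO libraries. At 540 min it was 15.9, 13.3 and 22.6 CPM in control and 31.2, 25.6 and 37.4 CPM in cDKO. All cDKO libraries lay above all control libraries at 0, 60 and 540 min, a position that 15.4%, 20.5% and 18.2% of the genes tested shared. The groups overlapped at 180 min, when 19.6% of genes had that position, with control values of 8.62, 18.3 and 22.6 CPM and cDKO values of 29.3, 20.1 and 29.1 CPM. The log2 change was 0.77 ± 0.20 at 0 min (SE, edgeR adjusted p = 0.0311) and 0.85 ± 0.23 at 540 min (edgeR adjusted p = 0.0310). At 60 and 180 min the values were 0.50 ± 0.18 and 0.64 ± 0.31, which did not pass (edgeR adjusted p = 0.0808 and 0.187). With the 4 times summed per replicate number the change was 0.70 ± 0.18 (SE, edgeR adjusted p = 0.0229). The call at 0 min was lost without any one of the 3 control libraries or cDKO replicates 1 or 3, with log2 changes of 0.63 to 0.87 and edgeR adjusted p up to 0.133. The call at 540 min was lost without control replicates 1 or 2 or cDKO replicates 1 or 3, with log2 changes of 0.71 to 0.87 and adjusted p of 0.0668 to 0.106.

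Lin28b, its paralog and the form found in fetal blood stem cells, had few reads, 267 in the 12 control libraries and 53 in the 12 cDKO libraries. Its interval is chr10:45376619-45381064 (mm10, minus strand). The control libraries held 1.49 to 10.5 CPM, with a median of 3.72 CPM. At 0 min the cDKO libraries held 2.05, 0.176 and 0 CPM, and at 540 min 1.26, 0.175 and 0 CPM. At 60 min only cDKO replicate 1 had reads, at 5.67 CPM, and at 180 min the 3 held 1.42, 0.407 and 0 CPM. Every cDKO library lay below every control library at 0, 180 and 540 min, where 18%, 17.8% and 18.9% of the genes tested did so, and the groups overlapped at 60 min, where the share was 17.9%. The cDKO replicates were unlike each other. Over the 4 times replicate 1 gave 49 Lin28b reads, replicate 2 gave 4 and replicate 3 gave 0 of its 20775405 reads in 3′UTRs, which allows up to 0.144 CPM by a limit of 3 counts. The control replicates gave 83, 52 and 132 reads, or 3.96, 2.30 and 5.49 CPM. Replicate 3 was thus at least 15.9-fold lower than the lowest control replicate, while replicate 1, at 2.52 CPM, lay within the range of the control replicates. That place rests on 1 library, since the 60 min library of replicate 1 gave 26 of its 49 reads. At 0, 180 and 540 min replicate 1 too lay below every control library of the same time. With the 4 times summed per replicate number, the log2 change of Lin28b was -2.14 ± 1.08 and did not pass (SE, edgeR adjusted p = 0.176). The log2 change was -2.11 ± 0.88 at 0 min (SE, adjusted p = 0.159 by edgeR) and -1.61 ± 1.11 at 60 min (edgeR adjusted p = 0.350), and neither passed. At 180 min Lin28b fell, with a log2 value of -2.56 ± 0.76 (edgeR adjusted p = 0.0398). That call was lost in the fit of all 24 libraries, and without any control replicate or cDKO replicates 2 or 3, or with all lines of a gene summed, with adjusted p from 0.0602 to 0.157 and log2 changes of -2.64 to -1.96. At 540 min Lin28b did not pass the count filter. Without the filter it was -2.93 ± 0.92 there (edgeR adjusted p = 0.0470), DESeq2 gave -2.98 ± 1.01 (adjusted p = 0.0216), and the fit of all 24 libraries did not call it (edgeR adjusted p = 0.102). Nor was it called at 540 min without control replicate 2 (edgeR adjusted p = 0.0522) or cDKO replicates 2 (0.117) or 3 (0.0814). It was called there without cDKO replicate 1 (edgeR adjusted p = 0.0260). Without cDKO replicate 1 the changes were -4.69 at 0 min (edgeR adjusted p = 0.0246) and -7.86 at 60 min (adjusted p = 0.0167), where the other cDKO libraries were at or near 0 reads, so that the fitted size depends on the prior count.

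Hmga2, a chromatin protein that opens DNA for growth genes and a textbook let-7 target, also differed between replicates. Its interval is chr10:120361275-120364251 (mm10, minus strand), and 20.5% of its 842 reads were multimapping. At 0 min the control libraries held 3.29, 9.58 and 13.2 CPM and the cDKO libraries 3.42, 8.47 and 1.10 CPM. At 180 min the control values were 4.81, 7.94 and 10.5 CPM and the cDKO values 2.64, 4.68 and 0.564 CPM. The groups overlapped at 0, 60 and 540 min. At 180 min every cDKO library lay below every control library, as in 17.8% of the genes tested. Log2 changes were -0.95 ± 0.67, -0.54 ± 0.48, -1.59 ± 0.58 and -0.94 ± 0.49 in the order of the times, and none passed (SE, edgeR adjusted p = 0.421, 0.474, 0.0852 and 0.224). Without cDKO replicate 2 the changes at 0 and 180 min were -1.95 and -2.30 and passed (edgeR adjusted p = 0.0497 and 0.0212). Over the 4 times the control replicates held 4.49, 8.28 and 12.2 CPM and the cDKO replicates 4.02, 6.71 and 2.21 CPM. The lowest of these was cDKO replicate 3, which had no Lin28b read. With the 4 times summed per replicate number, the log2 change of Hmga2 was -0.95 ± 0.47 and did not pass (SE, edgeR adjusted p = 0.169).

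**Figure D3:**
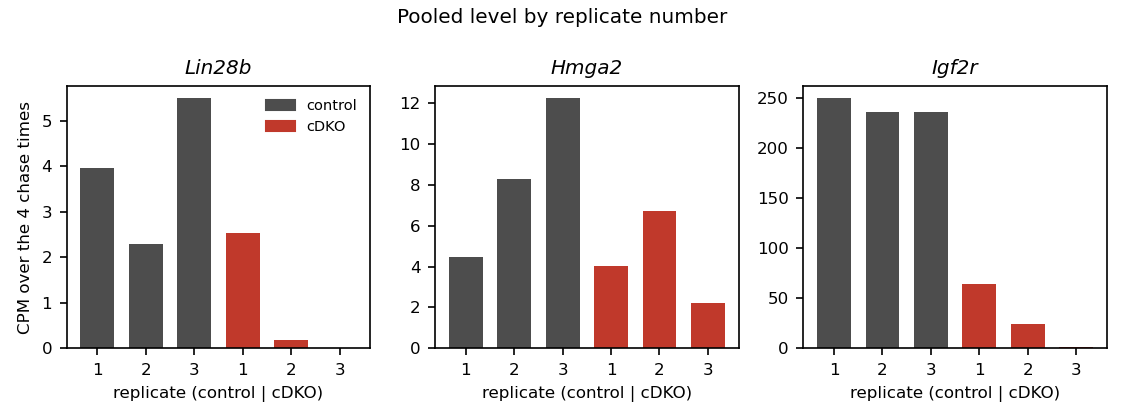
CPM over the 4 chase times together (vertical axis, from 0) for the 3 control and 3 cDKO replicate numbers (horizontal axis), for Lin28b, Hmga2 and Igf2r, with 1 bar per replicate number. In cDKO, Lin28b and Igf2r are highest in replicate 1 and lowest in replicate 3.

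Igf2r, the receptor that clears IGF2 and a gene of the fetal list rather than one of the 9, was placed beside Lin28b after its values were seen. It was 250.0, 236.6 and 236.2 CPM in the control replicates and 64.6, 24.3 and 1.44 CPM in cDKO replicates 1, 2 and 3. The marker gene Elane was 153, 33.0 and 14.6 CPM in the same 3 cDKO replicates, and 1304 to 1490 CPM in control. For Lin28b, Igf2r and Elane alike, replicate 1 was nearest to control and replicate 3 farthest, and the last 2 genes were chosen for that.

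Among the IGF2 mRNA-binding proteins, which stabilise growth transcripts, only Igf2bp3 was well covered. Its interval is chr6:49085218-49087341 (mm10, minus strand). At 0 min it was 240, 235 and 248 CPM in control and 186, 193 and 199 CPM in cDKO. At 540 min it was 268, 266 and 256 CPM against 194, 197 and 196 CPM. Every cDKO library lay below every control library at all 4 times. At each single time 17.8% to 18.9% of the genes tested had that position. The log2 changes were -0.31 ± 0.08, -0.37 ± 0.07, -0.29 ± 0.09 and -0.44 ± 0.07, and Igf2bp3 fell at each time (SE, edgeR adjusted p = 0.0441, 0.00387, 0.0413 and 0.00199). The calls at 60 and 540 min held under all 14 alternatives run for them. The call at 0 min was lost without any control replicate or cDKO replicate 1, and the call at 180 min without any control replicate or cDKO replicate 1, with log2 changes of -0.33 to -0.22 and edgeR adjusted p of 0.0956 to 0.165. With all lines of a gene summed neither of these calls passed (edgeR adjusted p = 0.0620 at 0 min and 0.0674 at 180 min), nor did that at 0 min without a count filter (0.0589). With the times summed per replicate number the change was -0.36 ± 0.05 (SE, edgeR adjusted p = 0.00182).

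Igf2bp1 had 4 reads in all 24 libraries, 3 in control and 1 in cDKO, and was not detectable as a difference at this depth. Igf2bp2 had 92 reads, 33 in control and 59 in cDKO, with 0 to 1.27 CPM and 0.175 to 1.88 CPM. The genotypes overlapped at every time. Summed per replicate number, its log2 value was 0.97 ± 0.42 (SE, edgeR adjusted p = 0.122), which did not pass.

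Arid3a, a DNA-binding protein of fetal B cell and stem cell programmes, is a target of the LIN28B and let-7 axis in fetal B cells. Its interval is chr10:79951937-79955018 (mm10, plus strand). At 0 min it was 400, 435 and 439 CPM in control and 376, 264 and 287 CPM in cDKO, and at 540 min 374, 310 and 380 CPM against 294, 283 and 248 CPM. Every cDKO library lay below every control library at 0, 180 and 540 min, as in 18%, 17.8% and 18.9% of the genes tested. The groups overlapped at 60 min, when control held 363, 336 and 368 CPM and cDKO 335, 355 and 279 CPM. The log2 change was -0.45 ± 0.12 at 0 min, -0.16 ± 0.09 at 60 min, -0.33 ± 0.09 at 180 min and -0.38 ± 0.10 at 540 min (SE, edgeR adjusted p = 0.0451, 0.256, 0.0229 and 0.0263). Arid3a fell at 0, 180 and 540 min. At 0 min the call was lost without any control replicate or cDKO replicate 3, at 180 min without control replicates 1 or 2, and at 540 min without control replicates 1 or 3. Its log2 changes in these fits ran from -0.48 to -0.32, and edgeR adjusted p from 0.0751 to 0.164. With all lines of a gene summed the call at 0 min was lost too (edgeR adjusted p = 0.0554).

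Nras, the small GTPase of growth factor signalling whose let-7 sites were among the first described, lies on chromosome 3. Nearly all its reads, 34790 of 34793, fell in the interval chr3:103064234-103067914 (mm10, plus strand). At 0 min it was 302, 323 and 313 CPM in control and 229, 155 and 260 CPM in cDKO. At 540 min it was 341, 338 and 332 CPM against 219, 199 and 233 CPM. Every cDKO library lay below every control library at all 4 times. At each single time 17.8% to 18.9% of the genes tested had that position. Nras fell at 60, 180 and 540 min, with log2 changes of -0.37 ± 0.08, -0.44 ± 0.08 and -0.64 ± 0.08 (SE, edgeR adjusted p = 0.0119, 0.00428 and 0.000577). At 0 min it was -0.53 ± 0.16 and did not pass (edgeR adjusted p = 0.0562). Of 15 fits for 0 min, this one included, 6 called Nras. Among the 6 were those without cDKO replicate 2 (log2 change -0.36, edgeR adjusted p = 0.0166) or 3 (-0.69, 0.00965). Another of the 6 summed the 4 times per replicate number (-0.51, edgeR adjusted p = 0.00291). The call at 60 min was lost without control replicate 1 (log2 change -0.30, edgeR adjusted p = 0.0557) or 3 (-0.38, 0.0503).

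Nras lay near the middle of the genes on its chromosome. The 482 other chromosome 3 genes tested at 0 min had a median log2 change of -0.51, and the medians at 60, 180 and 540 min were -0.48, -0.52 and -0.52. Genes on other chromosomes had medians of 0.01 to 0.02. Nras less the chromosome 3 median was -0.02, 0.11, 0.08 and -0.12 in the order of the times. With the times summed per replicate number, 50.3% of the other chromosome 3 genes had a lower value than Nras. The cause of the chromosome 3 values was not tested.

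**Figure D4:**
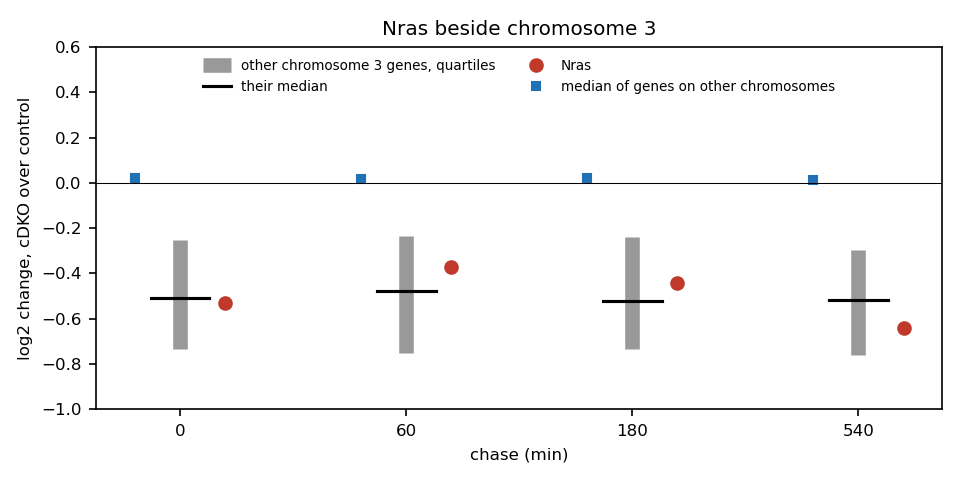
Log2 change of abundance, cDKO over control (vertical axis), at each chase time, for Nras (red), the other chromosome 3 genes (grey bar from the lower to the upper quartile, black line at the median) and the median of genes on other chromosomes (blue). Nras lies between the quartiles of chromosome 3 at all 4 times.

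Hmga1, the paralog of Hmga2, was the most uncertain of the covered genes, because 69.2% of its 2750 reads were multimapping and near-identical copies can share them. At 0 min it held 17.8, 23.9 and 23.1 CPM in control and 20.8, 19.1 and 18.8 CPM in cDKO. The groups overlapped at all 4 times. Its log2 values ran from -0.32 to -0.13 and none passed (edgeR adjusted p = 0.305 to 0.711), and without multimapping reads the value at 180 min was 0.05.

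Conversions were compared next, as the share of covered T positions read as C. The rate over whole libraries at 0 min ran from 1.62 to 1.67% in control and from 0.542 to 0.845% in cDKO, lower in cDKO over all genes together. Lin28a, Hmga1, Igf2bp3, Arid3a and Nras had enough coverage for a test. In all 5 every cDKO library lay below every control library at 0 min, as in 83.4% of the 9207 genes with that coverage. Arid3a was 2.74 ± 0.09% in control and 1.60 ± 0.29% in cDKO, Lin28a 1.99 ± 0.20 and 0.871 ± 0.59%, Igf2bp3 1.82 ± 0.13 and 0.850 ± 0.29%, Nras 1.51 ± 0.08 and 0.700 ± 0.23%, and Hmga1 1.29 ± 0.19 and 0.825 ± 0.31% (SD, n = 3). Each gave a two-sided exact permutation p of 0.1, the smallest that 3 against 3 libraries can give. Divided by the rate of its own library, the rate of Arid3a was 1.67 ± 0.08 in control and 2.20 ± 0.13 in cDKO, with every cDKO library above (two-sided exact permutation p = 0.1, n = 3). Of the 9207 genes 6.53% were above in this way and 6.74% below. For the other 4 the groups overlapped on this scale.

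**Figure D5:**
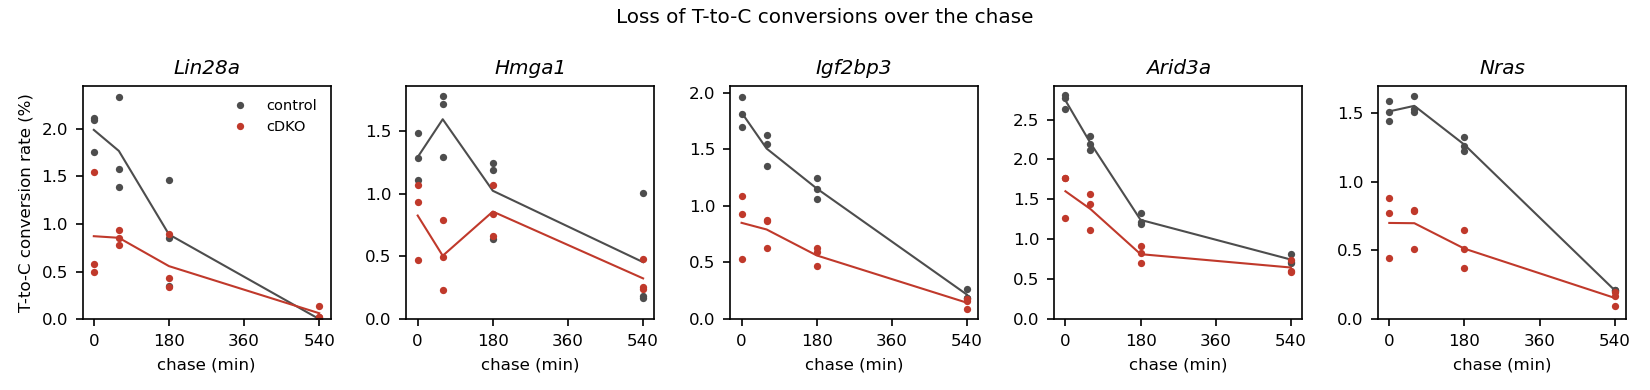
T-to-C conversion rate in percent of covered T positions (vertical axis, from 0) against chase time (horizontal axis) for the 5 genes covered well enough, with 1 point per library and a line through the means, control in grey and cDKO in red. Rates start lower in cDKO for all 5, and Arid3a has the highest mean rate at 540 min, when 1 control library of Hmga1 lies above it.

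Conversions were then followed over the chase. In control Lin28a had 1.99% at 0 min, 1.77 ± 0.50% at 60 min and 0.890 ± 0.56% at 180 min (SD, n = 3). At 540 min it had 0 of 8015 covered T positions converted, which allows up to 0.0374% by 3 counts. In cDKO it had 7 of 12989 at 540 min, 0.0539% (95% exact interval 0.0217 to 0.111%). Of these 7, 5 were in replicate 2. The interval pools the libraries and leaves out the spread between them. Nras in control was 1.51% at 0 min and 1.55 ± 0.06% at 60 min, then 1.27 ± 0.05% at 180 min and 0.210 ± 0.005% at 540 min. In cDKO Nras was 0.700, 0.698, 0.513 and 0.154%. Igf2bp3 in control was 1.82, 1.51, 1.15 and 0.216% in the order of the times.

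Arid3a kept more conversions late in the chase than the libraries as a whole. In control its rates were 2.74, 2.21, 1.24 and 0.746% in the order of the times, and in cDKO 1.60, 1.38, 0.814 and 0.646%. At 540 min the control libraries held 0.815, 0.720 and 0.702% and the cDKO libraries 0.592, 0.739 and 0.608%, so that the groups overlapped there. Whole-library rates at 540 min were 0.305 to 0.330% in control and 0.162 to 0.209% in cDKO, below Arid3a in every library.

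Lin28b and Hmga2 were too thinly covered for a rate per library. Pooled over the 3 control libraries, Lin28b had 2.07% of 1207 covered T positions converted at 0 min and 0.430% of 1628 at 540 min. Pooled Hmga2 had 1.10% of 3360 at 0 min and 0.0553% of 3618 at 540 min in control, and 1.17% of 1626 and 0% of 1659 in cDKO, where 0 conversions cannot be told from a low rate.

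The genotype by hour term of the edgeR fit on conversions, with covered T as offset, asked whether the loss differed in cDKO. None of the 5 genes passed, and 0.13% of all 9207 genes tested did. The 5 values were all above 0, the side of slower loss in cDKO, which held for 80.7% of all genes tested. They were 0.27 ± 0.13 log2 units per hour for Lin28a, 0.08 ± 0.04 for Nras, 0.07 ± 0.09 for Hmga1, 0.06 ± 0.03 for Arid3a and 0.05 ± 0.04 for Igf2bp3 (SE, edgeR adjusted p = 0.287, 0.320, 0.689, 0.329 and 0.519). The median of all genes was 0.07. At an unadjusted p under 0.05 edgeR passed 1 of the 5, Lin28a, and 1585 of all genes. DESeq2 called none of the 5.

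A single exponential gave control half-lives of 159 min for Lin28a, 206 min for Arid3a, 221 min for Igf2bp3, 317 min for Nras and 459 min for Hmga1. The median of 7652 genes in control was 205 min, and 35.3% of them were shorter than Lin28a and 79.9% shorter than Nras. In cDKO only Arid3a met the limit on spread at 0 min, an SD of normalised rates below 0.3, which the other 4 exceeded. Fitted per replicate, Arid3a in control had half-lives of 206, 230 and 184 min. In cDKO they were 236, 317 and 376 min, with no overlap (two-sided exact permutation p = 0.1, n = 3, the smallest possible). The share of all genes whose replicate half-lives do not overlap was not computed. The fit to all 12 libraries of a genotype gave 206 min in control and 298 min in cDKO, a change found in the same direction in 68.7% of the 3712 genes that met the limits in both genotypes. Without the 540 min libraries the Arid3a values were 165 and 198 min, and with 0.1% background subtracted 189 and 261 min, and in both the replicates overlapped. Fitting the log of the rates, intercept free, gave 298 and 433 min. The single exponential runs to 0, while Arid3a at 540 min still held 0.746% in control and 0.646% in cDKO. Its half-lives thus depend on the form fitted, and the part of these late rates in the difference was not tested. For the other 4 the fitted values in cDKO were 230 min for Lin28a, 260 min for Igf2bp3, 314 min for Nras and 496 min for Hmga1, and the replicates overlapped in each. The fitted value was longer in cDKO in 4 of 5, Nras being the exception, beside the 68.7% of the 3712 genes above. The Lin28a value in cDKO was 145 min without replicate 2 and 550 min without replicate 1, so it rests on single replicates. For Hmga1 the fit of cDKO replicate 3 stopped at the longest half-life allowed, 10000 min. Fitting the log of the rates gave 125 min in control and 119 min in cDKO for Lin28a. For Nras it gave 178 and 234 min.

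Abundance was also compared along the chase, a comparison in which time and batch cannot be told apart, since the labels give the chase time as batch. In control 16.2% of genes changed from 0 to 540 min, 8.06% up and 8.18% down. These 1660 genes became 1007 without control replicate 2 at 0 min and 1052 without replicate 3 at 0 min. Of the 9 genes Arid3a changed, with a log2 change of -0.30 ± 0.07 (SE, adjusted p = 0.00838 by edgeR). This call was lost without control replicate 2 at 0 min (log2 change -0.27, edgeR adjusted p = 0.0644) or replicate 3 at 0 min (-0.27, 0.0567). In cDKO 0.117% of genes changed, 0.00977% up and 0.107% down. None of the 9 passed, by edgeR or DESeq2, or at an unadjusted p under 0.05, and Arid3a was -0.20 ± 0.14 (SE, edgeR adjusted p = 0.656). The difference between the genotypes for Arid3a was 0.09 ± 0.17 (SE, edgeR adjusted p = 1.00). In that test edgeR called 0 genes, 0% of 10651, with 557 at an unadjusted p under 0.05, and DESeq2 called 6, none of the 9.

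The wider let-7 network was described with lists. Of 32 other reported let-7 targets, 25 were tested at 0 min, where 3 rose and 1 fell, beside 6.72% and 6.64% of all genes tested. Of the 26 tested later, 6 rose and 2 fell at 60 min, beside 9.97% and 10.2% of all genes. At 180 min 7 rose and 1 fell, beside 9.1% and 9.78%. At 540 min none rose and 1 fell by edgeR, beside 8.89% and 10.4%. Their medians were 0.02, 0.12, 0.12 and -0.06 on the log2 scale, and those of all genes tested lay within 0.01 of 0. Map4k4, a kinase upstream of JNK, was the gene that fell at 540 min, from 98.0 ± 7.60 to 37.6 ± 5.37 CPM (SD, n = 3), or -1.39 ± 0.13 in log2 (edgeR adjusted p = 0.000191). Ccnd2, a D-type cyclin, rose at 0 min from 679 ± 38.7 to 936 ± 111 CPM (log2 change 0.48 ± 0.10, edgeR adjusted p = 0.0164). E2f2, a transcription factor of S phase entry, rose at 180 min from 47.8 ± 5.74 to 83.5 ± 3.36 CPM (log2 change 0.78 ± 0.12, edgeR adjusted p = 0.00147). At 540 min Ccnd2 and E2f2 had log2 values of 0.36 and 0.42 and did not pass (edgeR adjusted p = 0.0527 and 0.108).

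Of 16 genes that process let-7 precursors, all were tested, and at 0 min 3 rose and 2 fell, beside 6.72% and 6.64% of all genes tested. The 2 that fell were Tut4 and Tut7. Hnrnpa1, whose protein binds the let-7a precursor, rose from 510 ± 28.6 to 682 ± 20.9 CPM at 0 min (SD, n = 3), which is 0.44 ± 0.08 in log2 (edgeR adjusted p = 0.00954). Ago2, the protein that carries mature let-7, rose at 0 min from 130 to 167 CPM (log2 change 0.38 ± 0.10, edgeR adjusted p = 0.0318), and at 540 min its value was -0.31 ± 0.13 (edgeR adjusted p = 0.126). The medians of the 16 were 0.03, 0.05, 0.02 and -0.06. Of 4 host transcripts of let-7 loci, Huwe1, whose introns hold let-7f and miR-98, was the one tested. It was 112 CPM in control and 117 CPM in cDKO at 0 min and passed at no time (edgeR adjusted p = 0.745 at 0 min).

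Of 18 fetal blood genes, 5 were tested at 0 min, and 4 of these were Lin28b, Hmga2, Igf2bp3 and Arid3a. The fifth, Igf2r, fell from 225 ± 7.32 to 30.2 ± 32.8 CPM (SD, n = 3), which is -2.90 ± 0.66 in log2 (edgeR adjusted p = 0.0203). The embryonic globin genes Hbb-bh1, Hbb-y and Hba-x had no reads at any time, while the adult Hbb-bt was high in cDKO.

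All genes were then grouped by seed matches, whether known as targets or not. At 0 min 13.5% of 1210 genes with 1 match and 11.9% of 202 genes with 2 or more changed, against 13.4% of 8296 genes with no match. Their median log2 changes were 0.0083, -0.0049 and 0.0042. No class differed from the rest by over 0.1 at any time, and no test was run between classes. The shares at 60 min were 21.0, 18.2 and 20.2% in the same order. The 180 min libraries gave 19.9, 17.3 and 18.97%. For 540 min the shares were 20.2, 16.8 and 19.3% and the medians 0.0018, -0.06 and 0.002. Loss of conversions was slower in cDKO by sign in 79.5% of genes with 1 match, 79.6% with 2 or more and 81.4% with none, with medians of 0.07 log2 units per hour in each class. A match says only that the letters are in the longest 3′UTR, which need not be the one these cells use.

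For the 6 of the 9 genes that passed the filter at all times, the genes whose CPM most resembled theirs over the 24 libraries, among 9896 genes that passed it, were found by Pearson's r of log2(CPM + 1). These correlations are across libraries that fall into 2 genotypes, and are given as a description. Lin28a was nearest to Cldn12 (r = 0.867), H4c17 (0.856) and Vcam1 (0.848). Igf2bp3 was nearest to Mfsd1 (0.945), Map4k4 (0.933) and Iqgap2 (0.926), so that another let-7 target of the lists was its second nearest gene. Arid3a was nearest to Macroh2a1 (0.917), Lipg (0.906) and Cd300a (0.894), and Nras to Lamtor3 (0.931), Atp6v1a (0.926) and Hpgd (0.922). Lamtor3 is on chromosome 3 like Nras, and so are Mfsd1 and Vcam1, which were near to genes of other chromosomes. Hmga2 and Hmga1 had lower values, with Ppm1f (0.791), Elovl7 (0.779) and Smco4 (0.775) for Hmga2 and Gsr (0.748), Actr3 (0.740) and Mcpt8 (0.730) for Hmga1.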

How the data were processed

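SLAM-seq libraries (QuantSeq FWD 3′ ends, 16 PCR cycles, no molecular identifiers) were tabulated by the authors with SlamDunk 0.4.3 over RefSeq 3′UTRs of mm10 (GRCm38), alignment settings not given in the sources used here. The deposited tables hold whole-number counts of reads, conversions and covered T positions per interval, a conversion rate as a fraction, and CPM values. Only the deposited counts were used, and rates and CPM were recomputed from them. Of 39419 lines, 99.2% were matched to a gene symbol of GRCm38.p6, the longest of overlapping intervals of a gene was kept, and its separate intervals were summed, giving 20867 genes. Abundance was tested with edgeR 4.0.16 quasi-likelihood fits (TMM, R 4.3.3) on 3 against 3 libraries per time, conversions with the log of covered T as offset (at least 100 per library and 50 conversions in all), and p-values adjusted by Benjamini-Hochberg over all genes tested. DESeq2 1.42.0 and the alternatives named below were run beside them, and scripts were tested on simulated data. Half-lives were single exponentials on rates divided by the 0 min rate, single values had two-sided exact permutation tests, and calls needed an adjusted p under 0.05. Named list genes were the 4 of each list with the smallest adjusted p at 0 min, except for items not reported here, and others were named after their values were seen. The 9 genes and all lists were chosen with earlier results of these data known. Replicates are biological per the labels. Intervals and limits cover counting error only.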

Additional observations from a re-analysis of the deposited data

How the results depend on the processing

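Over alternatives in scaling, filter, tool, intervals, multimapping reads and left-out libraries, no change in abundance of the 7 genes tested reversed except Hmga1 at 180 min, which was 0.0518 without multimapping reads. In loss of conversions Igf2bp3 was -0.0134 with background subtracted and Nras -0.0660 without the 540 min libraries, and neither was called in any fit. Counts of the 9 genes called at 0 min (3) became 1 with the replicate block and 1 with all lines of a gene summed, and leaving out 1 library gave 0 to 5, with 0 without any one control library and 5 without cDKO replicate 2. At 60 min (2) the count was 1 without chromosome 3, which removes Nras, and 1 to 3 without 1 library. At 180 min (4) it was 2 with the block, 2 with all lines summed, and 1 to 4 without 1 library. At 540 min (4) it was 2 to 4 without 1 library. The chase change in control (1) was 0 to 1 without 1 library. Conversion rates at 0 min lay below control in 5 genes, and in 0 over the library rate. The count of longer half-lives was 3 to 5 of 5 without 1 replicate. The cause of these changes was not tested. The labels do not tie replicate numbers across genotypes, and same-numbered control and cDKO libraries did not deviate together (correlations of -0.055 to 0.074, best match in 2 of 12 pairs), so the block is shown as an alternative. It changed no call among the conversions of the 9 genes, and in abundance it ended the calls of Igf2bp3 (adjusted p = 0.106) and Arid3a (0.0690) at 0 min, of Lin28b (0.0581) and Igf2bp3 (0.0520) at 180 min and of Arid3a (0.0522) at 540 min, by edgeR. Summing the 4 times per replicate number was chosen after seeing the data, and called 4 of the 9 genes. Over all genes, calls at 0 min were 1360 in the 3 against 3 fit, 2292 with all 24 libraries fitted together, 633 to 700 without any one control library and 2223 without cDKO replicate 2. Calls at 60 min (2046) were 1296 to 1360 without any one control library, those at 180 min (1915) 1155 to 1234, and those at 540 min (1977) 1182 without control replicate 1 and 1250 without control replicate 3. Calls along the chase in cDKO (12) were 119 by DESeq2, 128 with the block and 0 to 5 without 1 library. Calls in loss of conversions (12) were 277 by DESeq2, 59 with the block, 23 with the library rate in the offset, 29 with all lines summed, 4 with background subtracted, 1 without the 540 min libraries and 3 to 30 without 1 replicate, with 30 without cDKO replicate 1. Lin28b, Igf2bp1 and Igf2bp2 are limited by their read counts.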
